A study of Mus musculus with 6 samples.

Results

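The E2F transcription factor genes E2f1, E2f2, E2f3, E2f4, E2f7 and E2f8, the pocket protein genes Rb1, Rbl1 and Rbl2, and Mybl2, which encodes B-Myb, were followed across basophil-lineage cells of mouse bone marrow. The 10 genes were a named list, matched by Entrez Gene ID to mouse symbols, out of 24532 gene IDs. The list was chosen with earlier results of these data known, so it is not independent of them. All 10 were among the 11337 genes that passed the filter on low values, and each was listed above 0 in all 6 libraries. RNA sequencing had been done on cells sorted from bone marrow of C57BL/6J mice in 3 groups of 2 libraries, described as biological duplicates. BaP, the basophil precursor, had the gate lineage-negative, CD34+, ckit- and MAR1+. MAR1HI and MAR1INT shared the gate lineage-negative, CD34-, ckit- and CD200R3+, and were separated by high or intermediate staining with MAR1, an antibody to the FcεRIα chain of the IgE receptor. The mice's ages, and whether cells of several mice were pooled, were not given in the sources used here, so the p-values measure the spread between these libraries.

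E2F proteins bind the promoters of genes needed for DNA replication, and pocket proteins hold them in check until cyclin-dependent kinases phosphorylate the pocket proteins in G1. E2f1, E2f2 and E2f3 encode the activators, E2f4 a factor that works mostly with pocket proteins as a repressor, and E2f7 and E2f8 atypical repressors that need neither a DP partner nor a pocket protein. Rb1 encodes the retinoblastoma protein, Rbl1 its relative p107, which is abundant in cycling cells, and Rbl2 its relative p130, which is abundant in resting cells. In resting cells p130, E2F4 and a DP partner join the MuvB core in the DREAM complex, which represses cell cycle genes. In cycling cells B-Myb and then FoxM1 take their place on MuvB and activate genes of G2 and mitosis.

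Promoter sequence was available from RefSeq (GRCm38.p6) for 8 of the 10 genes, in 10 windows of 300 bases running from 250 bases before to 50 bases after an annotated start. Both strands were searched for the E2F element, written as TTTCCCGC, TTTCGCGC, TTTGCCGC or TTTGGCGC, and for the cell cycle homology region (CHR), written as TTTGAA or TTCGAA. The E2F words were found in 2.26% and the CHR words in 19.2% of all 32851 windows of this length, and none of the matches below overlap each other. The stretches below are shown because they hold the matches of genes that differed between groups, and of E2f8 for contrast. They are printed 5′ to 3′ on the gene's own strand with the matched letters in capitals.
Rbl1, chr2:157204535-157204654, minus strand: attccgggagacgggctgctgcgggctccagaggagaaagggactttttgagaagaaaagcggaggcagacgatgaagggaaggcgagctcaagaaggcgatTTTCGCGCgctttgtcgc
E2f3, chr13:29986064-29986183, minus strand: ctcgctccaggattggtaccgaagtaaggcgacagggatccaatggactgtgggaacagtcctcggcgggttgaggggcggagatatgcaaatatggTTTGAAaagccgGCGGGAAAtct
E2f7, chr10:110745215-110745274, plus strand: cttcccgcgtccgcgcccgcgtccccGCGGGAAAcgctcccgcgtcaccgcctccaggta
E2f8, chr7:48881597-48881716, minus strand: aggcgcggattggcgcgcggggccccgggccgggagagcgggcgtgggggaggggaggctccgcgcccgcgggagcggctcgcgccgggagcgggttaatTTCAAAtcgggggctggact
Rbl2, chr8:91069830-91069889, plus strand: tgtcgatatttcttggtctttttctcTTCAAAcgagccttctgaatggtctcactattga
Counting back from -1, the last base before the start, Rbl1 carried the E2F word TTTCGCGC at -18 to -11. E2f3 carried TTTCCCGC on the opposite strand at -11 to -4, next to the CHR word TTTGAA at -23 to -18, while the window at its other annotated start held no match. E2f7 carried TTTCCCGC on the opposite strand at -198 to -191. E2f8 and Rbl2 held no E2F word, and each had TTTGAA on the opposite strand, at -20 to -15 in E2f8 and at -201 to -196 in Rbl2. The E2f8 window belongs to a RefSeq start 555 bases upstream of the gene start in the deposited tables. E2f2 had TTTGGCGC after its first start and TTTGAA before its second, and the windows of E2f1 and Mybl2 held neither word. The E2f1 window belongs to a RefSeq start 466 bases inside the gene as the deposited tables place it, so sequence just before their start was not searched. Such matches describe the sequence and say nothing of binding in these cells. Only these exact words were searched, so a window without a match may still hold an element with other letters.

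In MAR1INT cells, 5 of the 10 genes, E2f1, E2f3, E2f7, Rbl1 and Mybl2, were lower than in MAR1HI cells and lower than in BaP, and Rbl2 was higher than in both. E2f2, E2f4, E2f8 and Rb1 passed the test in none of the comparisons. No gene of the 10 passed it between MAR1HI and BaP, where limma gave 3 of them (E2f2, Rb1 and Rbl2) an unadjusted p under 0.05. Over all genes tested, limma gave 1980 of 11337 an unadjusted p under 0.05 in that comparison. A gene passed at a Benjamini-Hochberg adjusted p under 0.05 over the 11337 genes in limma, on log2 of TPM plus 1. TPM, the transcript abundance used, is scaled by transcript length and sums to 1000000 in every library. Over all genes tested, 14.5% were lower and 2.29% higher in MAR1INT than in MAR1HI, 20.4% lower and 11.1% higher in MAR1INT than in BaP, and 0.662% lower and 1.83% higher in MAR1HI than in BaP. The median log2 change of the 10 genes was -1.37 in MAR1INT minus MAR1HI against -0.36 over all genes, -1.02 against -0.16 in MAR1INT minus BaP, and 0.37 against 0.24 in MAR1HI minus BaP. The comparisons share libraries, so the counts for MAR1INT are not independent of each other. With 2 libraries a group, the smallest p of an exact permutation test is 0.333, so each call rests on the spread that limma pools over genes. In sorted bulk RNA, a smaller share of cells with a transcript and less of it in each cell cannot be told apart.

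**Figure D1:**
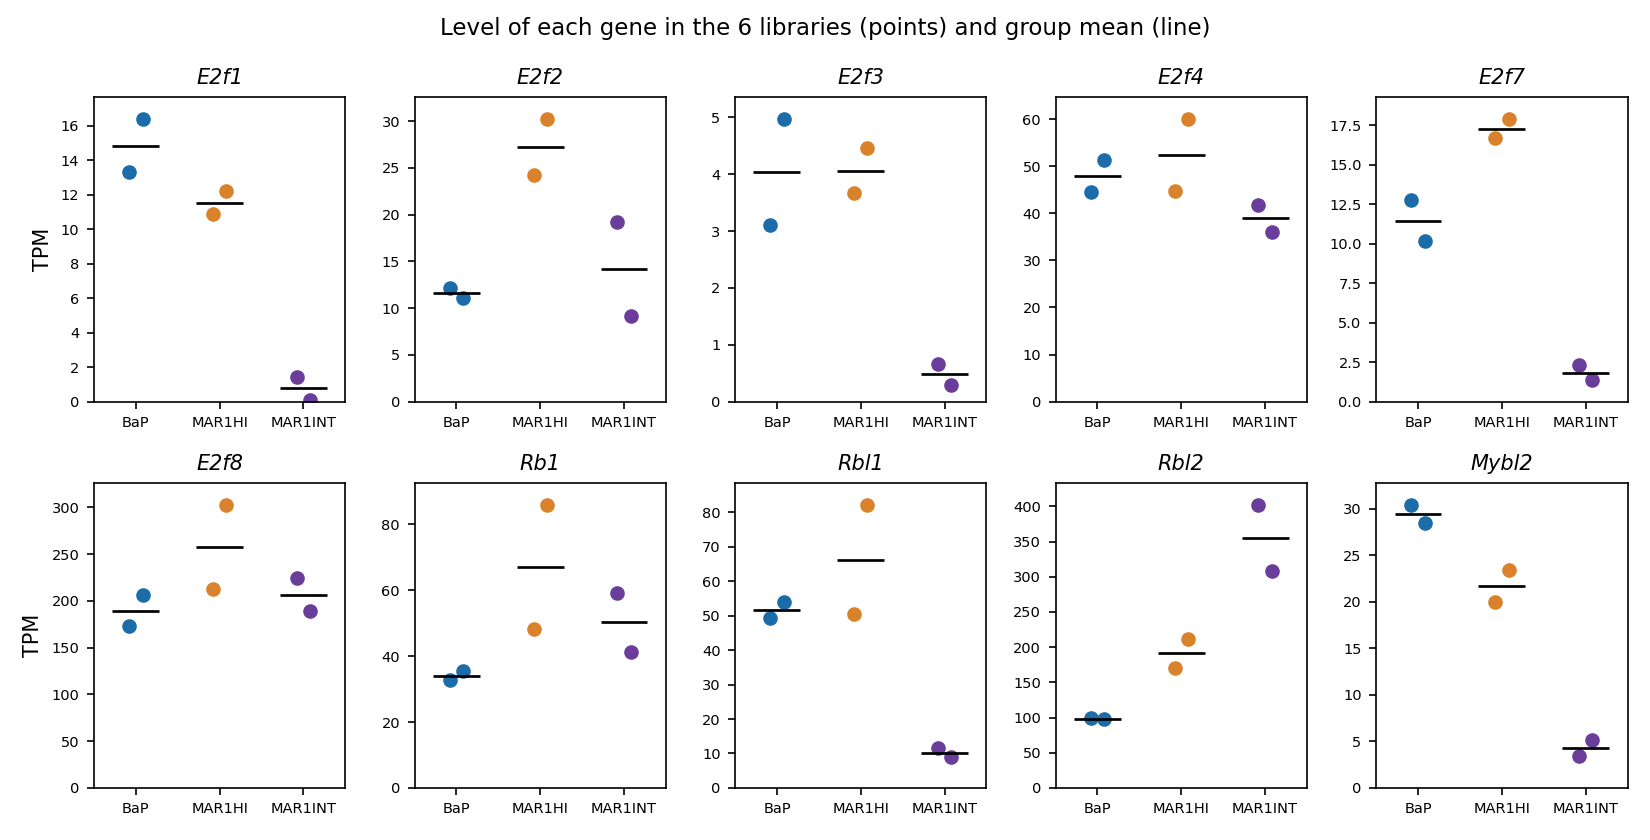
Level of each of the 10 genes in TPM (vertical axis, linear, its own scale per gene and starting at 0) in the BaP, MAR1HI and MAR1INT groups, with 1 point per library and a line at the mean of the 2. The MAR1INT points lie below all 4 other points for E2f1, E2f3, E2f7, Rbl1 and Mybl2, and above them for Rbl2. They also lie below them for E2f4, which did not pass the test.

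Among the activators, E2f1 (Entrez 13555, mm10 chr2:154559400-154569892, minus strand) stood at 13.3 and 16.4 TPM in BaP, 10.9 and 12.2 TPM in MAR1HI, and 1.44 and 0.103 TPM in MAR1INT. All 4 libraries of the first groups were far above both MAR1INT libraries. E2f1 fell by 2.93 (SE 0.48, adjusted p = 0.00396) on the log2 scale from MAR1HI to MAR1INT, and by 3.26 (adjusted p = 0.00118) from BaP. The log2 change in MAR1HI minus BaP was -0.33 (adjusted p = 0.762). Without MAR1HI replicate 1 or 2 the difference between MAR1INT and MAR1HI missed the threshold, with adjusted p-values of 0.0657 and 0.089, and it also did so with no filter on low values (0.0581).

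E2f3 (Entrez 13557, chr13:29906575-29986063, minus strand) had the lowest mean level of the 10 in each group. Its level was 3.10 and 4.97 TPM in BaP, 3.67 and 4.46 TPM in MAR1HI, and 0.662 and 0.298 TPM in MAR1INT. The MAR1INT libraries again lay below the other 4, and BaP and MAR1HI overlapped. E2f3 fell by 1.78 on the log2 scale from MAR1HI (SE 0.43, adjusted p = 0.022) and by 1.75 from BaP (adjusted p = 0.0134). Between MAR1INT and MAR1HI the adjusted p was 0.0865 without MAR1HI replicate 1, 0.138 without MAR1HI replicate 2, 0.25 after quantile normalization and 0.0916 with no filter on low values. Between MAR1INT and BaP it was 0.0918 without BaP replicate 2, 0.183 after quantile normalization and 0.056 with no filter.

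E2f2 (Entrez 242705, chr4:136172274-136196056, plus strand), the third activator, had another pattern. It stood at 12.2 and 11.1 TPM in BaP, 24.3 and 30.2 TPM in MAR1HI, and 19.2 and 9.19 TPM in MAR1INT. MAR1HI was above both other groups in each library, and the MAR1INT libraries lay on either side of BaP. The log2 change was 1.16 in MAR1HI minus BaP (SE 0.41, 95% interval 0.24 to 2.08, adjusted p = 0.186) and -0.97 in MAR1INT minus MAR1HI (adjusted p = 0.143). In MAR1INT minus BaP it was 0.19, with an interval from -0.73 to 1.11. The gene passed in MAR1HI minus BaP when MAR1INT replicate 1 or 2 was left out (adjusted p = 0.0325 and 0.028), and in MAR1INT minus MAR1HI without MAR1INT replicate 1 (adjusted p = 0.0122).

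E2f4 (Entrez 104394, chr8:105297663-105305370, plus strand), the repressive E2F of DREAM, was at 44.6 and 51.3 TPM in BaP, 44.7 and 60.01 TPM in MAR1HI, and 41.7 and 36.1 TPM in MAR1INT. The MAR1INT libraries were the lowest, by a margin smaller than the gap between the MAR1HI libraries. Its log2 change was -0.41 (SE 0.28, interval -1.03 to 0.21, adjusted p = 0.353) in MAR1INT minus MAR1HI and -0.29 (interval -0.91 to 0.33, adjusted p = 0.449) in MAR1INT minus BaP. With FPKM, the same deposited abundances without TPM's fixed total, the second difference was -0.52 with an adjusted p of 0.0446.

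The atypical repressors differed from each other. E2f7 (Entrez 52679, chr10:110745465-110787384, plus strand) was at 12.7 and 10.2 TPM in BaP, 16.7 and 17.9 TPM in MAR1HI, and 2.29 and 1.36 TPM in MAR1INT. Every MAR1INT value was below every other value. E2f7 fell by 2.71 from MAR1HI to MAR1INT (SE 0.41, adjusted p = 0.00254) and by 2.15 from BaP to MAR1INT (adjusted p = 0.00416) on the log2 scale. These calls were lost without MAR1HI replicate 2 (adjusted p = 0.0629) and without BaP replicate 1 (adjusted p = 0.0682), respectively.

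E2f8 (Entrez 108961, chr7:48866429-48881041, minus strand) stood at 174 and 206 TPM in BaP, 213 and 302 TPM in MAR1HI, and 225 and 189 TPM in MAR1INT. The MAR1INT range overlapped both other groups. Its mean TPM was above that of 94.8% of the genes tested, and it had the highest TPM of the E2F genes in all 6 libraries. Its log2 change was -0.30 in MAR1INT minus MAR1HI (SE 0.24, interval -0.83 to 0.23, adjusted p = 0.43) and 0.12 in MAR1INT minus BaP (interval -0.41 to 0.65, adjusted p = 0.722). The interval against MAR1HI leaves out the log2 change of -2.71 fitted for E2f7. In the GENCODE M21 annotation 610 exon bases of E2f8, 11.2% of its exon length, overlap Gm2788 on the opposite strand, and it was not stated whether the counting used strand. Reads of the 2 genes cannot be told apart over those bases.

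Among the pocket protein genes, Rbl1 (p107; Entrez 19650, chr2:157145894-157204534, minus strand) was at 49.3 and 54.0 TPM in BaP, 50.5 and 82.1 TPM in MAR1HI, and 11.6 and 8.89 TPM in MAR1INT. BaP and MAR1HI overlapped and MAR1INT lay below both. Rbl1 fell by 2.55 on the log2 scale from MAR1HI (SE 0.33, adjusted p = 0.00127) and by 2.24 from BaP (adjusted p = 0.00114). These were the steadiest of the lower calls: Rbl1 passed in both comparisons under each of the 15 alternatives run, with adjusted p-values up to 0.0457.

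Rbl2 (p130; Entrez 19651, chr8:91070057-91123844, plus strand) went the other way. It stood at 99.4 and 97.6 TPM in BaP, 171 and 211 TPM in MAR1HI, and 401 and 308 TPM in MAR1INT, so that the 3 groups did not overlap. Rbl2 rose by 1.82 on the log2 scale from BaP to MAR1INT (SE 0.22, interval 1.32 to 2.32, adjusted p = 0.00046), a ratio of 3.54 on the TPM plus 1 scale, and passed under all 15 alternatives. The step from MAR1HI to MAR1INT was 0.88 (adjusted p = 0.0263), and that from BaP to MAR1HI was 0.94 (adjusted p = 0.0635). The first of these lost its call without BaP replicate 1 (adjusted p = 0.0593), BaP replicate 2 (0.0596), MAR1HI replicate 1 (0.114), MAR1HI replicate 2 (0.0849) or MAR1INT replicate 1 (0.151), with no filter on low values (0.084) and when only the 2 groups were fitted (0.0518), and it held in 8 of 15 alternatives. The second gained a call with a mean of at least 5 TPM (adjusted p = 0.0455), when only the 2 groups were fitted (0.0183), and without MAR1INT replicate 1 (adjusted p = 0.0162) or replicate 2 (0.0165). Part of the Rbl2 exons lies opposite other genes, with 693 bases (9.17%) shared with Aktip, whose highest level was 16.7 TPM, and 892 bases (11.8%) with Gm45464.

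Rb1 (Entrez 19645, chr14:73195502-73325791, minus strand) was at 32.8 and 35.5 TPM in BaP, 48.3 and 85.7 TPM in MAR1HI, and 59.2 and 41.2 TPM in MAR1INT. The MAR1HI libraries were far apart, and the MAR1INT values lay within or below their range. The log2 change was 0.90 in MAR1HI minus BaP (SE 0.33, interval 0.15 to 1.65, adjusted p = 0.204) and -0.37 in MAR1INT minus MAR1HI (interval -1.12 to 0.37, adjusted p = 0.485). In MAR1INT minus BaP it was 0.52 (interval -0.23 to 1.27, adjusted p = 0.261). Its exons share 488 bases with Rcbtb2 and 408 bases with Lpar6, both on the opposite strand, and Lpar6 reached 123 TPM.

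Mybl2 (B-Myb; Entrez 17865, chr2:163054635-163084687, plus strand) was at 30.4 and 28.5 TPM in BaP, 20.0 and 23.5 TPM in MAR1HI, and 3.44 and 5.18 TPM in MAR1INT. The groups did not overlap. Mybl2 fell by 2.11 from MAR1HI to MAR1INT (SE 0.36, adjusted p = 0.00477) and by 2.54 from BaP to MAR1INT (adjusted p = 0.000995) on the log2 scale. Its log2 change of -0.42 in MAR1HI minus BaP did not pass (adjusted p = 0.588). The call against MAR1HI was lost without MAR1HI replicate 2 (adjusted p = 0.0748), and the call against BaP held under all 15 alternatives.

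**Figure D2:**
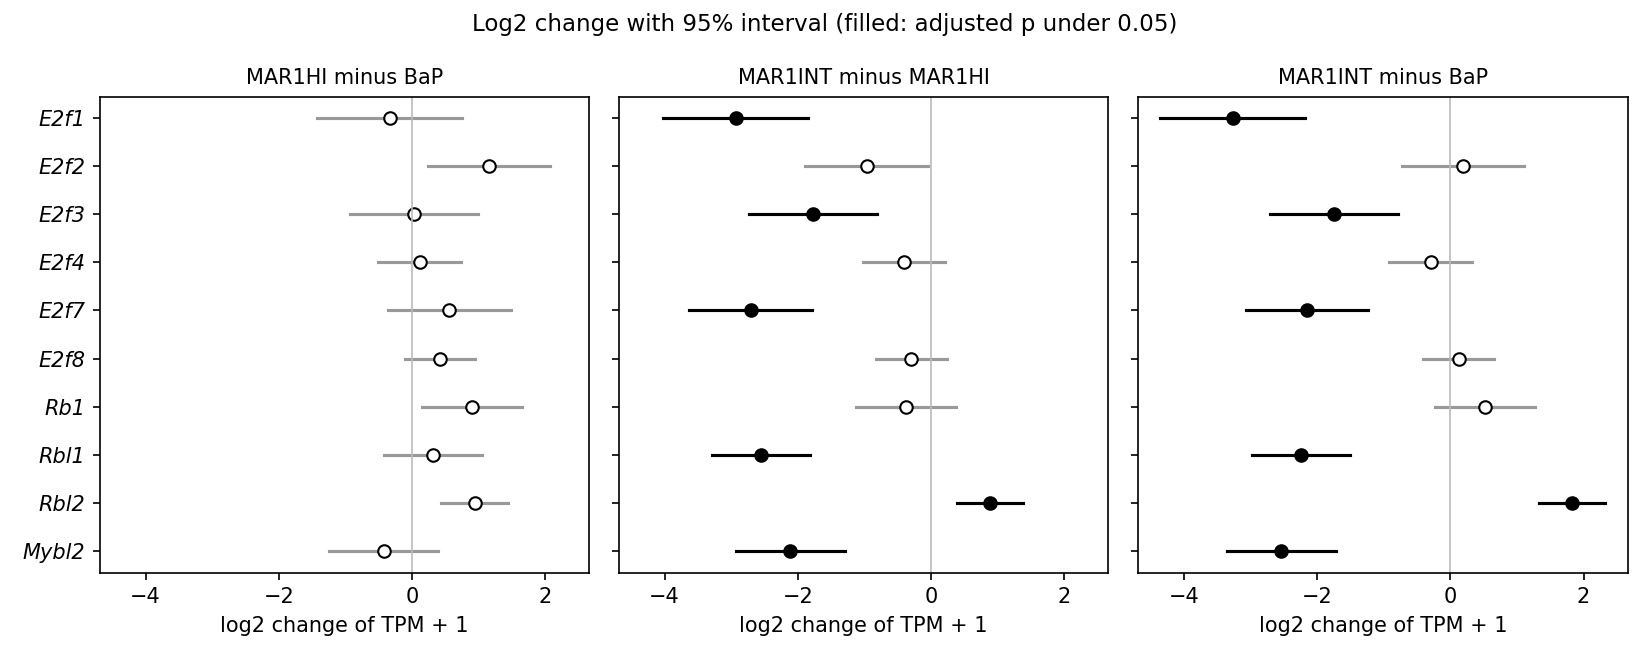
Log2 change of TPM plus 1 (horizontal axis) of the 10 genes in each comparison, with the 95% interval from limma as a bar and filled points where the adjusted p was under 0.05. E2f1, E2f3, E2f7, Rbl1 and Mybl2 are filled to the left of 0 in both comparisons with MAR1INT, Rbl2 is filled to the right, and no point is filled in MAR1HI minus BaP.

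Since TPM is scaled by length, the members can also be ranked by it. The libraries were made by a capture method, so the ranks may also reflect how well each gene was captured, which was not tested. In BaP the order of mean TPM ran from E2f8 over Rbl2, Rbl1, E2f4, Rb1, Mybl2, E2f1, E2f2 and E2f7 to E2f3, and Rbl1 and E2f4, and E2f2 and E2f7, overlapped in their ranges over the libraries. In MAR1HI, E2f8 and Rbl2 still led, Rb1, Rbl1 and E2f4 followed with overlapping ranges, and E2f2 came before Mybl2, E2f7, E2f1 and E2f3. In MAR1INT, Rbl2 led with a mean of 355 ± 66.3 TPM (SD, n = 2), followed by E2f8 with 207 ± 25.1 TPM. Rb1 and E2f4 overlapped in the next places, then E2f2 and Rbl1. Mybl2 came after these, and E2f7, E2f1 and E2f3, the last places, were neighbours whose ranges overlapped.

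The summed TPM of the 6 E2F genes was highest in MAR1HI and overlapped between BaP and MAR1INT, with 259 and 299.6 in BaP, 313 and 427 in MAR1HI and, in MAR1INT, 290 and 236. E2f8 made up 66.9% and 68.7% of that sum in BaP, 68.0% and 70.8% in MAR1HI and, in MAR1INT, 77.5% and 80.1%. The 3 activators together held between 10.8% and 12.4% in the 4 BaP and MAR1HI libraries, and 7.35% and 4.07% in the MAR1INT libraries, where E2f2 was most of what was left. The level of E2f8 was 12.8 to 20.2 times that of E2f7 in the BaP and MAR1HI libraries, and 97.9 and 139 times in MAR1INT. E2f2 was at 0.913 and 0.676 times the level of E2f1 in BaP, at 2.24 and 2.47 times in MAR1HI, and at 13.3 and 89.4 times in MAR1INT, the last over an E2f1 level of only 0.103 TPM.

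The pocket protein sum was 182 and 187 TPM in BaP, 269 and 379 TPM in MAR1HI, and 472 and 358 TPM in MAR1INT. Rbl2 made up 54.8% and 52.2% of it in BaP, 63.4% and 55.7% in MAR1HI and, in MAR1INT, 85.0% and 86.0%. The share of Rbl1 was 27.2% and 28.9% in BaP, 18.7% and 21.6% in MAR1HI and, in MAR1INT, 2.46% and 2.48%. The ratio of Rbl2 to Rbl1 was therefore 2.02 and 1.81 in BaP, 3.38 and 2.58 in MAR1HI and, in MAR1INT, 34.5 and 34.6, with no overlap between groups. Ratios and shares within a library do not depend on a scaling factor per library. Their size may still depend on how well each gene was captured, which was not tested.

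**Figure D3:**
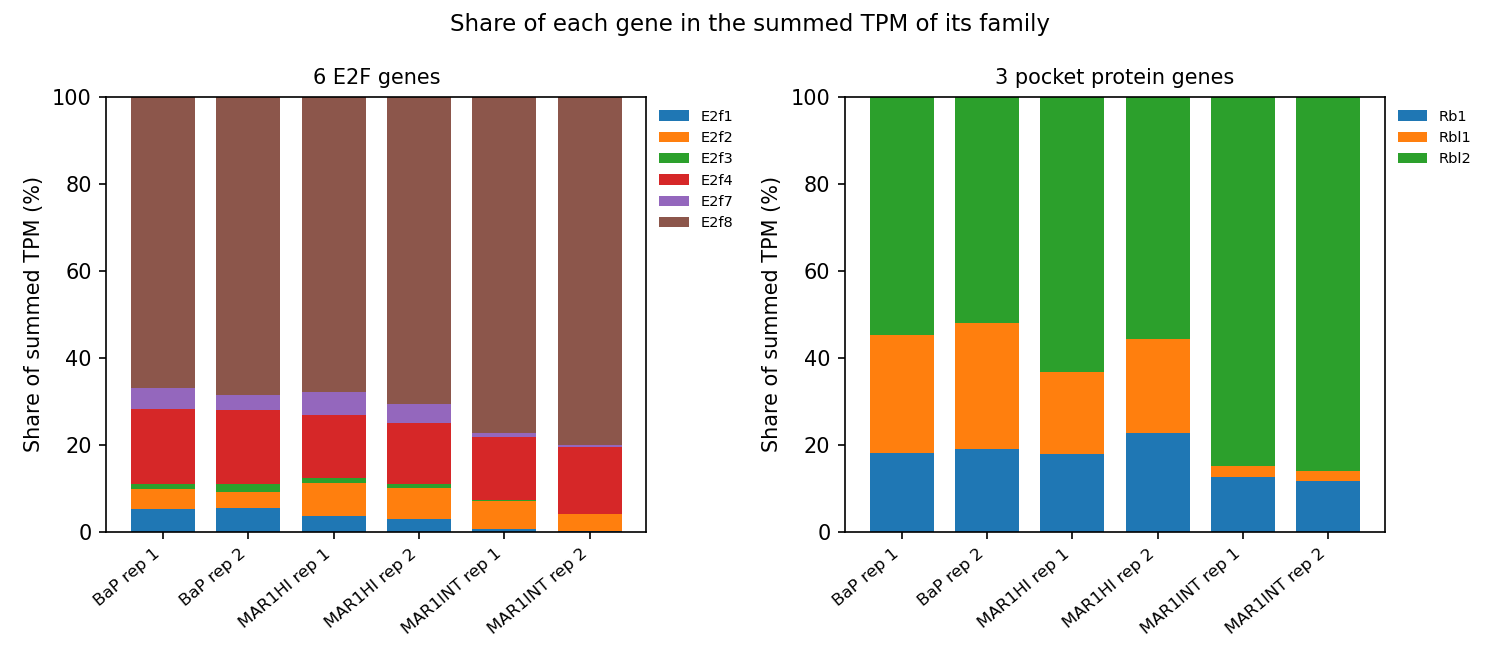
Share (%, stacked bars from 0 to 100) of each gene in the summed TPM of the 6 E2F genes (left) and of the 3 pocket protein genes (right), with 1 bar per library. The E2f8 share lies between 66.9% and 70.8% in the BaP and MAR1HI libraries and at 77.5% and 80.1% in MAR1INT, and the Rbl1 share drops to 2.46% and 2.48% in MAR1INT.

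Genes that work with the members were read from 6 further lists, and none of their 95 tested genes passed in limma between MAR1HI and BaP. Of the 95, 8 had an unadjusted p under 0.05 in limma there, against 1980 of 11337 over all genes. Each list had been assembled with earlier results of these data known. Of the partner and remaining E2F genes, E2f5, a repressor like E2F4, was listed at 1.66 and 2.60 TPM in BaP, 1.19 and 2.87 TPM in MAR1HI, and at 0 in both MAR1INT libraries. It was the 1 of 4 that passed in MAR1INT minus MAR1HI (adjusted p = 0.0402), and did not pass without BaP replicate 1 or either MAR1HI library, with no filter on low values or after quantile normalization. In MAR1INT minus BaP, E2f5 (adjusted p = 0.0196) and Tfdp2 (adjusted p = 0.0353) were lower, and neither passed without BaP replicate 2, with no filter or after quantile normalization. Tfdp1, the main DP partner, ranged from 188 to 253 TPM over the 6 libraries, with a log2 change of -0.30 (adjusted p = 0.328). E2f6, a repressor that does not bind pocket proteins, had a log2 change of -1.002 (adjusted p = 0.104), and Tfdp2, another DP partner, one of -1.51 (adjusted p = 0.118).

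Of the MuvB core and FoxM1, 3 of 6 genes were lower in MAR1INT than in MAR1HI and none was higher. Foxm1, the mitotic activator that binds MuvB after B-Myb, was at 37.9 and 49.1 TPM in BaP, 49.8 and 56.1 TPM in MAR1HI, and 7.54 and 4.44 TPM in MAR1INT, and fell by 2.98 on the log2 scale (SE 0.34, adjusted p = 0.000701). Lin54, the subunit that contacts the CHR, fell by 1.40 (adjusted p = 0.0397), and Rbbp4, a histone-binding subunit, fell by 1.10 (adjusted p = 0.019). The other MuvB subunits had log2 changes of -1.80 for Lin9 (adjusted p = 0.0664), -0.69 for Lin37 (0.103) and -0.60 for Lin52 (0.358). Leaving out any 1 of the 4 BaP and MAR1HI libraries, or the filter on low values, reduced the 3 calls to 1.

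Of 9 tested genes for the G1 cyclins, kinases and regulators that act upstream of the pocket proteins, 7 were lower in MAR1INT than in MAR1HI. Ccne2, encoding a cyclin E, was at 53.7 and 59.5 TPM in MAR1HI and at 3.39 and 0 TPM in MAR1INT, and fell by 4.78 on the log2 scale (SE 0.60, adjusted p = 0.0011). Ccne1, the other cyclin E gene, fell by 3.10 (adjusted p = 0.00402), and Skp2, part of the ligase that degrades p27, fell by 2.96 (adjusted p = 0.00183). Cdk4, a kinase of pocket proteins, fell by 1.79 (adjusted p = 0.00188), and Cdk2, Cdk6 and the phosphatase gene Cdc25a fell by 1.56, 1.31 and 1.53. The D-type cyclin genes did not pass: Ccnd2 had a log2 change of 0.95 (adjusted p = 0.129) and Ccnd3 one of -0.50 (adjusted p = 0.172), while Ccnd1 was below 1 TPM in all 6 libraries and not tested. The 7 calls became 3 with no filter on low values, where 562 of 18601 genes passed over all, against 1900 of 11337 as reported. Fewer genes of the list passed without MAR1HI replicate 1, and the calls were lost without MAR1HI replicate 2. Fewer of all genes passed in these fits too.

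Of 38 G1/S genes known as E2F targets, 33 were lower in MAR1INT than in MAR1HI and none was higher, with a median log2 change of -2.55 against -0.36 over all genes. Gins1 and Rfc4, for a replication fork factor and a subunit of the clamp loader, were at 29.4 and 26.9 TPM and at 24.2 and 29.4 TPM in MAR1HI, and both were listed at 0 in the MAR1INT libraries. Pole, the leading-strand polymerase, was at 44.5 and 46.7 TPM in MAR1HI and 1.34 and 1.76 TPM in MAR1INT (log2 change -4.20, SE 0.33, adjusted p = 0.00015). Among the genes that did not pass, Cdt1, Orc1, Rfc3 and Pola2 had log2 changes between -1.78 and -1.03. Against BaP 35 of the 38 were lower. The summed TPM of the list was 2670 and 2579 in BaP, 2282 and 2784 in MAR1HI and, in MAR1INT, 613 and 454.

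All 34 G2/M genes known as targets of B-Myb, MuvB and FoxM1 were lower in MAR1INT than in MAR1HI, and all 34 were lower than in BaP. The median log2 changes were -3.20 and -2.89. Birc5, the survivin gene, was at 123 and 108 TPM in MAR1HI and 2.58 and 0 TPM in MAR1INT (log2 change -5.94, SE 0.52, adjusted p = 0.000218). Ccnb1, encoding cyclin B1, was at 119 and 168 TPM in MAR1HI and 4.10 and 7.09 TPM in MAR1INT (log2 change -4.47, adjusted p = 0.000142). The kinase gene Melk fell by 4.86 and Dlgap5, a spindle protein gene, by 4.44, each with an adjusted p of 0.000249. The summed TPM was 3020 and 3177 in BaP, 3483 and 4546 in MAR1HI and, in MAR1INT, 488 and 380. Without MAR1HI replicate 2, 21 of these 34 genes and 14 of the 38 G1/S genes passed in MAR1INT minus MAR1HI. Between MAR1HI and BaP the fitted changes of the lists had different signs, with 28 of 38 G1/S genes below 0 (median -0.19) and 0 of 34 G2/M genes below 0 (median 0.34), and none of these genes passed. The median over all genes was 0.24 on the same scale.

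Of 7 genes for inhibitors of cyclin-dependent kinases, 4 were tested. Cdkn1b, encoding p27, was at 32.4 and 28.3 TPM in BaP, 47.1 and 59.3 TPM in MAR1HI, and 113 and 92.9 TPM in MAR1INT. It rose by 0.94 from MAR1HI (SE 0.26, adjusted p = 0.039) and by 1.72 from BaP (adjusted p = 0.00135) on the log2 scale. Cdkn1a, encoding p21, was listed at 0 in both MAR1INT libraries against 4.66 and 5.03 TPM in MAR1HI (adjusted p = 0.00309). Cdkn2c, an inhibitor of the kinases that pair with D-type cyclins, fell by 2.53 (adjusted p = 0.0219), and Cdkn2d, of the same family, had a log2 change of -0.56 (adjusted p = 0.217). The 3 calls became 1 without either BaP library or MAR1HI replicate 1, with no filter or when only the 2 groups were fitted, and 0 without MAR1HI replicate 2.

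**Figure D4:**
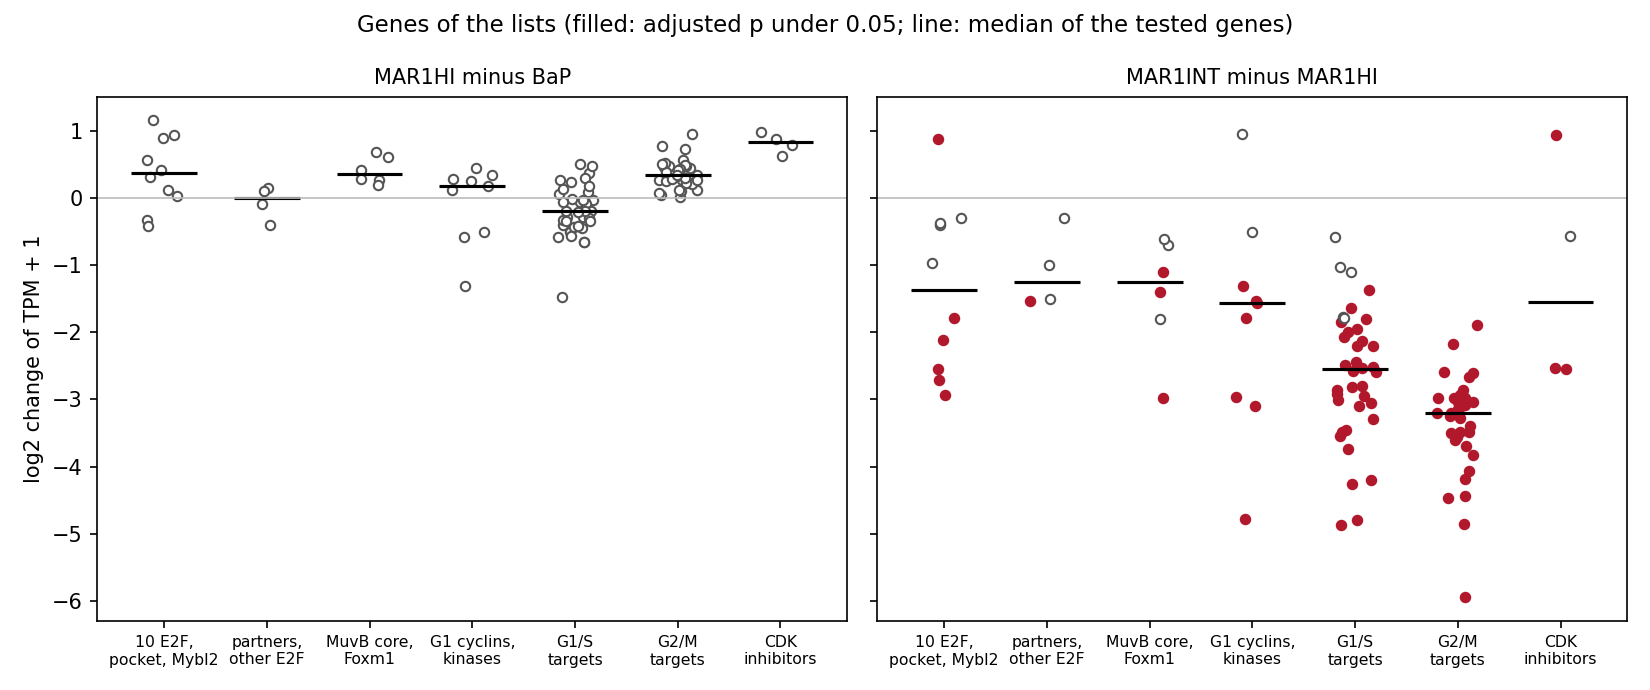
Log2 change of TPM plus 1 (vertical axis) of each tested gene of the 10 members and the 6 lists in MAR1HI minus BaP (left) and MAR1INT minus MAR1HI (right), with filled points for an adjusted p under 0.05 and a line at the list's median. No point is filled on the left, and on the right 33 of 38 G1/S genes and 34 of 34 G2/M genes are filled below 0.

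The basophil identity given in the labels was met by the defining markers: all 10 were expressed, with a summed TPM of 17221 and 22088 in BaP, 22087 and 18439 in MAR1HI and, in MAR1INT, 14498 and 11836. In MAR1INT minus BaP 4 of them were lower (Mcpt8, Prss34, Fcer1a and Cpa3) and 4 higher (Cd200r3, Gata2, Hdc and Il4), and in MAR1INT minus MAR1HI 3 were lower (Mcpt8, Fcer1a and Cpa3) and Cd200r3 was higher. Kit, whose protein the gates of all 3 groups left out, was at 44.9 and 38.6 TPM in BaP and at most 4.36 TPM in the other 4 libraries. Other measures moved with the groups as well. The summed TPM of 9 stem and progenitor markers was 287 and 269 in BaP, 94.3 and 148 in MAR1HI and, in MAR1INT, 42.4 and 31.1, with 4 of the 6 tested lower in MAR1INT than in MAR1HI. That of 12 neutrophil markers was 6178 and 11084 in BaP, 4990 and 3772 in MAR1HI and, in MAR1INT, 4009 and 3502, with 4 of 12 lower in MAR1INT than in MAR1HI. That of 8 eosinophil markers was 2160 and 1146 in BaP and between 81.2 and 228 in the other 4 libraries. Siglecf went the other way, with 21.9 and 20.9 TPM in BaP, 29.5 and 44.5 TPM in MAR1HI, and 79.5 and 110 TPM in MAR1INT. Of the 7 tested, it was the 1 that passed in MAR1INT minus MAR1HI. Against BaP, 5 of the 7 were lower in MAR1INT and Siglecf was higher. Of the mast cell markers Mcpt1 was at 0 in all 6 libraries, Mcpt4 and Cma1 stayed below 1 TPM, and Tpsb2 and Mitf reached at most 1.39 and 1.42 TPM. Kit, given above, is also on that list. Of the T and NK cell markers Cd3g was at 0 in all 6 libraries, Cd8a, Ncr1 and Klrb1c stayed below 1 TPM, and Cd3e reached at most 1.20 TPM. Cd4 was at 2.17 and 2.02 TPM in BaP and was lower in MAR1INT than in BaP (limma adjusted p = 0.042). Nkg7, a granule gene of that list, was at 371 and 380 TPM in BaP, 194 TPM in each MAR1HI library and 32.3 and 51.5 TPM in MAR1INT, and was lower in MAR1INT than in MAR1HI (adjusted p = 0.000607). The summed TPM of 8 dendritic cell markers was 798 and 333 in BaP, 76.6 and 65.1 in MAR1HI and, in MAR1INT, 25.2 and 32.2, with 3 of 6 tested lower in MAR1INT than in MAR1HI. That of 10 monocyte and macrophage markers was 325 and 397 in BaP, 325 and 363 in MAR1HI and, in MAR1INT, 754 and 677. Ccr2 alone held 618 and 565 TPM of the MAR1INT sums. Ccr2 and Adgre1 were higher in MAR1INT than in MAR1HI, and the other 7 of 9 tested did not pass. Against BaP, 5 of the 9 were lower in MAR1INT (Csf1r, C1qa, C1qb, Spic and Vcam1) and 1, Ccr2, was higher. The sums of the erythroid, megakaryocyte and B and plasma cell lists overlapped between MAR1INT and at least 1 other group. Histone genes took 15.2% and 17.6% of all TPM in BaP, 18.6% and 12.0% in MAR1HI and, in MAR1INT, 8.21% and 7.81%. Genes at 1 TPM or more numbered 10983 and 11544, 10710 and 11038, and 9604 and 9705 in the same order, over 4.75 to 5.28 gigabases of aligned sequence per library. The part of these measures in the members' differences was not tested. Leaving the histone genes out of the TPM total kept the 6 calls of the members in each comparison with MAR1INT. That step only rescales each library by 1 factor, so it cannot tell what part the histone genes had.

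Finally, for E2f1, E2f8, Rbl2 and Mybl2 the genes with the most similar pattern were looked up among 8782 genes with a mean of 5 TPM or more. Likeness was the mean absolute difference, over the 6 libraries, of log2 values centred on each gene's mean, and is given as a description. Nearest to E2f1 were Uhrf1 (0.0764), Gstcd (0.104) and Ticrr (0.144), against a median of 1.32 over all genes, and Uhrf1 and Ticrr are known to act in DNA replication. Nearest to Mybl2 were Zfp955b (0.0985), Clec12a (0.102) and Mms22l (0.111), against a median of 0.991. Clec12a, an inhibitory lectin receptor gene, went from 417 and 367 TPM in BaP over 299 and 317 TPM in MAR1HI to 47.0 and 85.1 TPM in MAR1INT. Nearest to Rbl2 were Map4k4 (0.0698), Cdkn1b (0.0704) and Fyb (0.0732), against a median of 0.707, and all of them had their lowest values in BaP and their highest in MAR1INT. Nearest to E2f8 were Ap2a1 (0.0317), Fam117a (0.0417) and Klhl17 (0.0426), against a median of 0.339. Among the members themselves, E2f4 and E2f8 (0.161) and E2f7 and Rbl1 (0.191) were the closest pairs.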

How the data were processed

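TRIzol LS served for RNA extraction and the SureSelect XT RNA direct kit, a capture method, for the libraries, per the labels. Per the submitters' processing notes, Trimmomatic, HISAT2, StringTie and mm10 were used, and versions, options and annotation were not given in the sources used here. Per the file headers, the deposited tables hold coverage (a signal per base), FPKM and TPM for each gene. They hold no read counts, so precision was judged from the spread between libraries, and aligned bases were worked out from the deposited FPKM and coverage. Of 24532 IDs, 24462 matched the GRCm38.p6 gene table, and 99.4% of the matched IDs overlapped their reference interval. Coordinates are those of the tables, counted from 1.

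Genes with 1 TPM or more in at least 2 of 6 libraries were tested on log2(TPM + 1), a scale that understates changes of low genes. limma 3.58.1 (R 4.3.3) was fitted with 1 term per group and a trended empirical Bayes step (3 residual and 6.39 prior degrees of freedom), two-sided, with Benjamini-Hochberg adjustment over 11337 genes. Alternatives changed the filter (none, or a mean of 5 TPM), the pseudocount (0.1), the unit (FPKM), the scaling (quantile or median-of-ratios), the histone genes (63 left out) and the libraries fitted. Each library was also left out in turn. The named genes were the 10 members, every partner, MuvB and G1 kinase gene, up to 4 called genes of each other list with the largest change in MAR1INT minus MAR1HI, and the 3 nearest patterns of 4 members. Genes outside that rule (4 of the G1/S list that did not pass, and Cdkn2d) were named after their values were seen, and some genes of that list are not reported here. The members and all gene lists were chosen with earlier results of these data known. Figures were drawn with matplotlib 3.10.9 in Python 3.11.15.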

Additional observations from a re-analysis of the deposited data

How the results depend on the processing

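The number of members passing in MAR1HI minus BaP, 0 with the settings reported, was 1 (Rbl2) with a mean of at least 5 TPM, 2 (Rbl2 and E2f2) when only the 2 groups compared were fitted, and 0 to 2 with 1 library left out. In MAR1INT minus MAR1HI the 6 became 3 with no filter on low values, where 18601 genes were tested, and ranged from 1 to 6 with 1 library left out, the 1 without MAR1HI replicate 2. In MAR1INT minus BaP the 6 stayed between 5 and 7 under all alternatives. With a replicate block the counts were 0, 6 and 6, and it changed no call of a member. Same-numbered libraries deviated together in none of the pairs of groups beyond a correlation of 0.154 across genes (the others were -0.092 and -0.059). Such a correlation cannot tell whether same-numbered libraries shared mice or a batch, which was not stated. In a fit without 1 library of a group of 2, the lone library is assumed to vary like the others. No member that passed changed direction. Some that did not pass changed sign. With FPKM, the log2 change was -0.0298 for E2f2 and -0.11 for E2f8 in MAR1INT minus BaP, and -0.14 for E2f3 and -0.11 for E2f4 in MAR1HI minus BaP. With quantile normalization it was -0.0629 for E2f8 in MAR1INT minus BaP, and -0.0092 for E2f3, -0.21 for E2f4 and -0.0031 for Rbl1 in MAR1HI minus BaP. With median-of-ratios scaling it was -0.21 for E2f3 and -0.18 for E2f4 in MAR1HI minus BaP, and without histone genes -0.0136 for E2f8 in MAR1INT minus BaP. With 1 library left out it ranged from -0.31 to 0.68 for E2f2 in MAR1INT minus BaP, from -0.24 to 0.30 for E2f3, -0.0945 to 0.32 for E2f4 and -0.0324 to 0.66 for Rbl1 in MAR1HI minus BaP, and from -0.78 to 0.0337 for Rb1 in MAR1INT minus MAR1HI. The cause was not tested. The scaling moved the median of all genes: in MAR1INT minus MAR1HI it was -0.36 as reported, 0.11 (quantile) and -0.11 (median-of-ratios), in MAR1INT minus BaP -0.16, 0.11 and -0.17, and in MAR1HI minus BaP 0.24, 0.02 and -0.04. The share of higher genes among all genes passing moved with it, from 13.7% to 45.3% and 39.7% in MAR1INT minus MAR1HI, from 35.3% to 55.1% and 41.4% in MAR1INT minus BaP, and from 73.4% to 56.9% and 60% in MAR1HI minus BaP. All genes passing in MAR1HI minus BaP numbered 282 as reported, 4 with no filter and 1062 when only these groups were fitted. In MAR1INT minus MAR1HI all genes passing numbered 1900 as reported and 562 with no filter. They were also fewer without either MAR1HI library, and fewest without MAR1HI replicate 2. The fall in calls under these settings was thus not limited to the members and the lists. With 2 libraries per group and no read counts, a member that did not pass may differ by any amount within its interval.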
